A study of Mus musculus with 18 samples.

Results

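Cranial and dorsal dermis of the mouse were compared on 6 of the 18 arrays of the series, the 3 titled Cranial and the 3 titled Dorsal, and each of 18193 genes was tested as Cranial minus Dorsal. The Cranial cells came from cranial dermis of Wnt1Cre; R26mTmG mice and the Dorsal cells from dorsal dermis of En1Cre; R26mTmG mice. Both were labelled as untreated, adult and of postnatal day 30. R26mTmG is a reporter that turns from red to green fluorescence in cells in which Cre has acted and in all their descendants. Green cells without red signal were kept from both dermal sites, after cells positive for EpCAM, Tie2, CD45, CD31, a marker spelled Tie119 or the dye DAPI had been gated out. Wnt1Cre acts in cells that express Wnt1, among them the neural crest, and En1Cre in cells that express Engrailed-1, so each group holds only the descendants of its own Cre-expressing cells. Site, lineage and reporter line coincide in this design and cannot be told apart. The labels used here name neither the sex nor the strain of the animals, nor whether the 3 arrays of a group were separate animals, so that p-values measure the spread between these arrays, which may be technical.

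The dermis of the face and forehead descends from cranial neural crest, whose anterior part arises in front of the Hox expression domains of the embryo. The dorsal dermis of the trunk descends from the somites, whose axial level is written in a combination of Hox genes. Homeobox factors of the Dlx, Msx, Alx and Lhx families and their partners pattern the facial mesenchyme. Fibroblasts of adult skin are known to keep many of these positional patterns.

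Oral and Ventral cells, from oral mucosa of the Wnt1Cre line and ventral dermis of the En1Cre line at the same age and with the same gate, gave another pair of the same reporter lines with 3 arrays each. All values are log2 expression after robust multichip averaging (RMA), so 1 unit is a 2-fold difference. Calls are genes with an adjusted p under 0.05 in limma, fitted to the 12 arrays of these 4 groups. The 3 Cranial arrays were much closer to each other (r across genes 0.997 to 0.998) than the 3 Dorsal arrays (0.946 to 0.975), and the median SD per gene was 0.104 in Cranial and 0.2815 in Dorsal. The 12-array fit shares 1 spread over the groups, which can be too small where Dorsal is compared, so the result of a fit to the 6 Cranial and Dorsal arrays alone is given beside it, and "both fits" means called in each. The 3′ minus 5′ signal of the beta-actin control probe sets, which grows as RNA is degraded or shortened, was 2.02, 2.01 and 2.11 in Cranial and 2.47, 3.12 and 3.16 in Dorsal. The same measure of the Gapdh control probe sets differed less and overlapped, at 2.54, 2.45 and 2.66 in Cranial and 2.64, 2.67 and 2.88 in Dorsal. The beta-actin gap moves with every difference reported here, and its part in them was not tested. The lower quartile of the 6 arrays lay between 3.93 and 4.10, and a group mean at or under it is near background, so that the difference from it may be understated.

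Among the genes called, more were higher than lower in Cranial on the deposited scale. Of 18193 genes, 3393 (18.7%) were called in the 12-array fit, 2037 higher (11.2%) and 1356 lower (7.45%) in Cranial. In the 6-array fit 1242 (6.83%) were called, 870 higher and 372 lower, and 1213 (6.67%) passed both fits, 850 higher (4.67%) and 363 lower (2%). The arrays of the groups did not overlap for 6451 genes (35.5%). Among these were 3364 of the 3393 genes called over 12 arrays, so that absence of overlap adds little to a call. With 1 weight per group, which lowers the influence of the variable Dorsal arrays, 1773 genes (9.75%) were called, 1306 higher (7.18%) and 467 lower (2.57%). At least a 2-fold difference together with a call was found for 1056 genes (5.8%), 800 higher (4.4%) and 256 lower (1.41%). The median difference over all genes was -0.062. The balance of directions rests on the scaling: after centring each array on its median the median of all genes moved to -0.272 and only 21.1% of the calls were higher in Cranial, against 60% as deposited. Dorsal 1 stood farthest from its group, and without it the 12-array fit called 6148 genes.

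**Figure D1:**
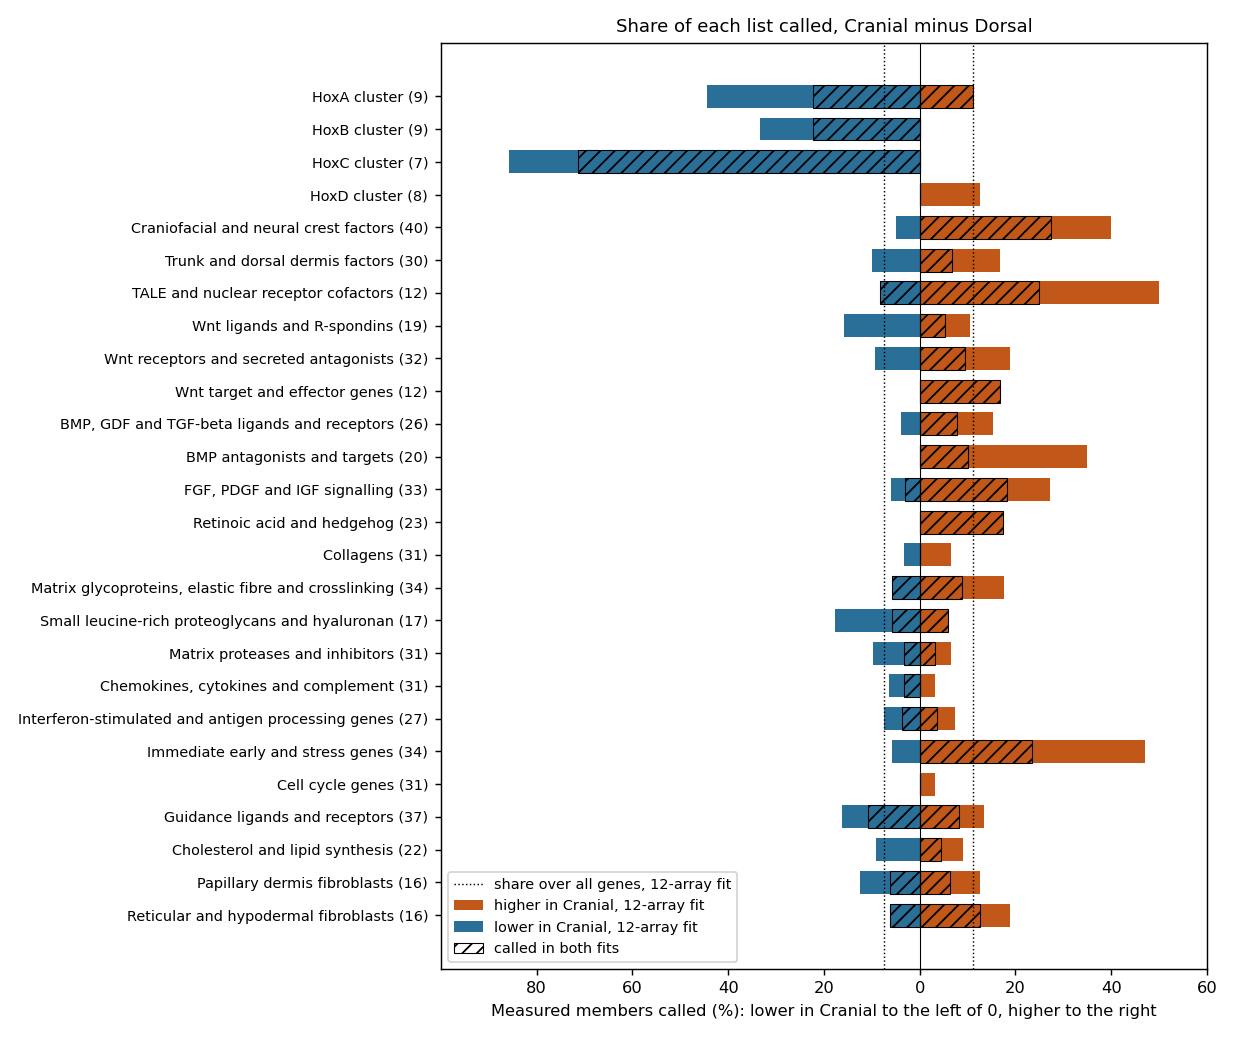
Share of the measured members of each gene list called higher (right of 0) or lower (left of 0) in Cranial than in Dorsal, in percent, with the number of measured members in brackets. Hatched bars are members called in both fits and dotted lines are the shares over all 18193 genes (11.2% higher, 7.45% lower). The HoxC cluster extends farthest to the left, with 6 of 7 members lower, and the bars of the nuclear receptor, immediate early and craniofacial lists extend farthest to the right.

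Hox genes, the homeobox factors that mark position along the body axis, were lower in Cranial in 3 of the 4 clusters. In the HoxC cluster 6 of 7 measured genes fell and 5 of them in both fits, with a median of -1.66. In the HoxA cluster 4 of 9 fell and 1 rose, and in the HoxB cluster 3 of 9 fell and none rose in the 12-array fit. The HoxD cluster differed from these, with 1 of 8 genes higher, none lower and a median of 0.057. Called shares were 55.6% in HoxA, 33.3% in HoxB, 85.7% in HoxC and 12.5% in HoxD, against 18.7% of all genes.

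Hoxc8, a gene of thoracic identity, measured 4.56, 4.62 and 4.53 on the Cranial arrays and 9.95, 11.13 and 11.12 on the Dorsal arrays. The groups are far apart and the Cranial arrays nearly alike. Hoxc8 fell by 6.16 ± 0.26 (SE), 71.7-fold, with a limma adjusted p of 6.91e-07 over 12 arrays and 0.00129 over 6 arrays. Hoxa9, which acts at the thoracic and lumbar levels, measured 5.10, 4.51 and 4.63 in Cranial and 10.67, 8.86 and 9.53 in Dorsal. It was 30.6-fold lower in Cranial (difference -4.94 ± 0.36, adjusted p 2.31e-05 over 12 and 0.00543 over 6 arrays). Hoxc10, a gene of the lumbar level and the hindlimb, measured 3.66, 4.42 and 4.36 in Cranial, around the background, and 7.43, 8.25 and 8.42 in Dorsal. Its difference was -3.89 ± 0.30, with an adjusted p of 0.00476 over 6 arrays.

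Further Hox genes followed the same direction at smaller sizes. Hoxc9 fell by 2.05 ± 0.14, Hoxc4 by 1.66 ± 0.16 and Hoxc6 by 1.00 ± 0.16, all in both fits and with no overlap of arrays. Hoxa10 fell by 1.96 ± 0.30 from a Dorsal mean of 5.91 to a Cranial mean of 3.94, near background. Hoxb6 and Hoxb9 fell by 1.10 ± 0.23 and 0.70 ± 0.17 in both fits. Hoxc5 fell by 1.32 ± 0.36, Hoxa7 by 0.91 ± 0.22, Hoxb4 by 0.91 ± 0.19 and Hoxa3 by 0.49 ± 0.15 in the 12-array fit, with adjusted p of 0.0735, 0.0698, 0.0705 and 0.152 in the 6-array fit. The other measured gene of the HoxC cluster, Hoxc13, did not pass the test (4.88 against 4.74).

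Hoxa2 went the other way. This most anterior of the expressed HoxA genes, known for its role in the second pharyngeal arch, measured 5.06, 4.82 and 5.19 in Cranial against 3.11, 3.56 and 3.37 in Dorsal, where it is near background. The arrays do not overlap, and Hoxa2 rose by 1.68 ± 0.15 (adjusted p 6.94e-05 over 12 and 0.00633 over 6 arrays). Hoxd3 rose by 0.77 ± 0.17 (adjusted p 0.0129), a call that the 6-array fit did not keep (0.0685). Hoxd8 and Hoxd9 were well expressed in both groups, at 9.19 and 8.15 in Cranial and 8.76 and 7.51 in Dorsal, and were not called (adjusted p 0.433 and 0.182).

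**Figure D2:**
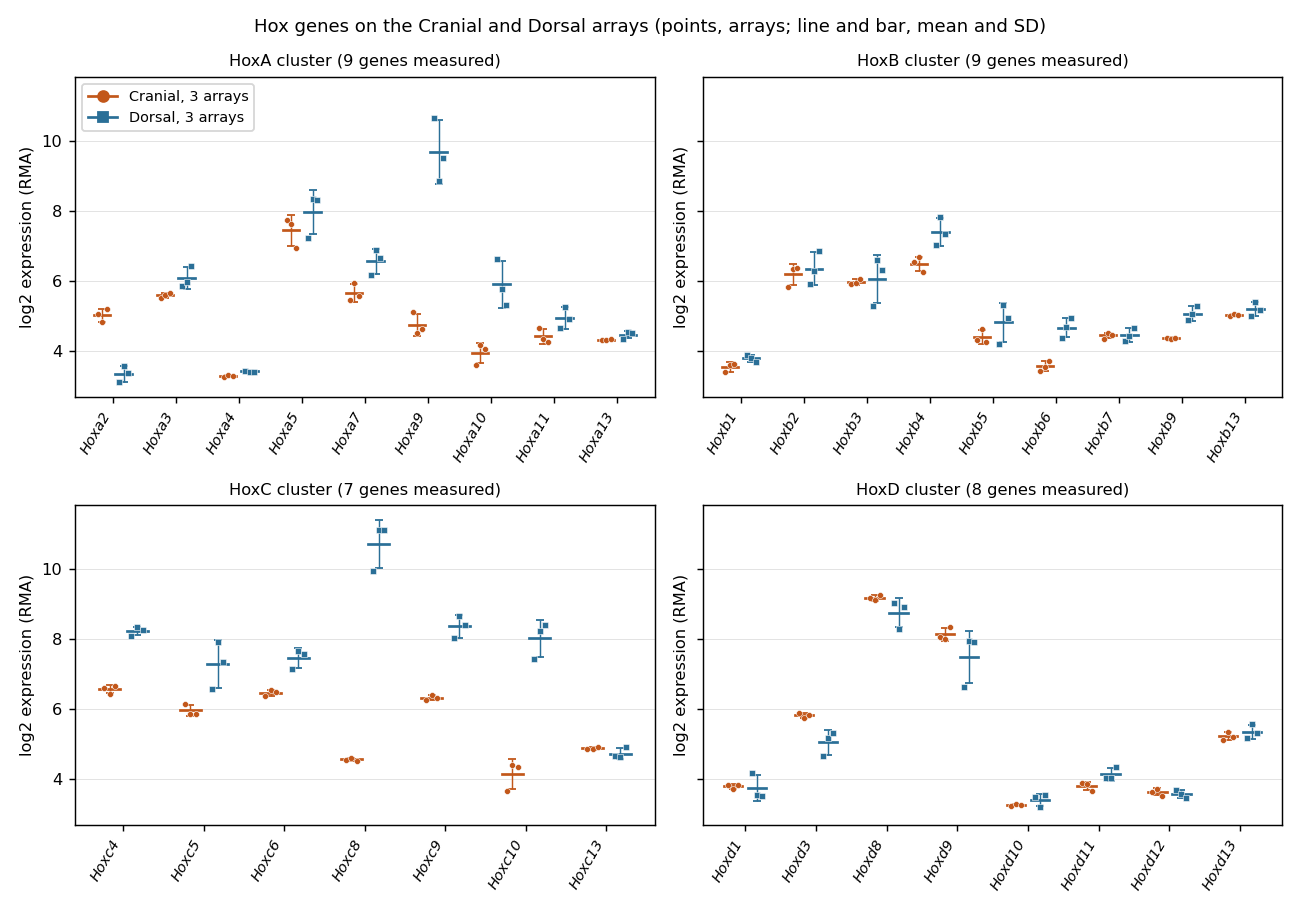
Log2 expression (RMA) of the measured Hox genes of each cluster on the 3 Cranial arrays (circles) and the 3 Dorsal arrays (squares), with horizontal lines at the means and bars of 1 SD. Hoxc8 and Hoxa9 show the widest separation, from 4.57 to 10.73 and from 4.75 to 9.69, while Hoxd8 and Hoxd9 are high in both groups.

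Factors of craniofacial and neural crest patterning were higher in Cranial. Of 40 measured, 16 rose (40% of the list, against 11.2% of all genes) and 2 fell, and 11 rose in both fits with none falling. The median of the list was 0.21, and -0.0032 after median centring. Foxc1, a forkhead factor of head mesenchyme and skull formation, measured 7.36, 7.24 and 7.36 in Cranial and 3.75, 4.78 and 5.01 in Dorsal. The highest Dorsal array lay more than 2 units under the lowest Cranial array, and Foxc1 rose by 2.81 ± 0.33, 6.99-fold (adjusted p 0.000378 over 12 and 0.00988 over 6 arrays). Dlx2, a homeobox factor of the jaw, measured 7.50, 7.49 and 7.83 against 5.10, 4.96 and 5.14. The values within each group were close together, and Dlx2 rose by 2.54 ± 0.15, 5.81-fold, with an adjusted p of 0.0014 over 6 arrays.

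Hand2, a basic helix-loop-helix factor of the lower jaw, measured 6.42, 6.64 and 6.54 in Cranial and 4.13, 4.68 and 4.98 in Dorsal, a rise of 1.94 ± 0.27. Pax3, which is needed by neural crest and also by the dermomyotome, measured 7.08, 7.03 and 7.0 against 5.16, 5.26 and 5.40. It rose by 1.76 ± 0.12, 3.39-fold, and both genes passed the 6-array fit (adjusted p 0.00992 and 0.00232). Eya1, a cofactor of homeobox proteins, rose by 1.75 ± 0.25, and Lhx8, a LIM homeobox factor of palate and tooth mesenchyme, by 1.38 ± 0.19, again in both fits. Lhx8 stood at 6.70 in Dorsal, so that its transcript signal was well over background there too. Alx1, a homeobox factor of the upper face, was low in both groups (4.44 and 3.76) and rose by 0.68 ± 0.14 in the 12-array fit only (adjusted p 0.0583 over 6 arrays). Snai2 and Eya2, both called lower in the 12-array fit, differed by -0.51 ± 0.14 and -0.46 ± 0.14, and neither passed the 6-array fit (adjusted p 0.0939 and 0.093).

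Factors of trunk and dorsal dermis were split, with 5 of 30 higher and 3 lower in Cranial and 2 higher and none lower in both fits. Calls made up 26.7% of the list, against 18.7% of all genes. The median of -0.072 was close to that of all genes. Meox2, a homeobox factor of somites and limb muscle, was among those that rose: it measured 7.08, 7.12 and 7.31 in Cranial and 4.33, 5.75 and 5.31 in Dorsal, a difference of 2.05 ± 0.30 (adjusted p 0.00137 over 12 and 0.0274 over 6 arrays). Emx2 rose by 0.96 ± 0.16 in both fits. Twist1, a factor of mesoderm and neural crest mesenchyme, rose by 0.97 ± 0.20 and Tbx1 by 1.08 ± 0.19, with adjusted p of 0.0509 and 0.0537 over 6 arrays. Zic1, a zinc finger factor of dorsal neural tube and dorsal somite, had the largest fall of the list. It measured 8.0, 7.92 and 8.20 in Cranial and 8.75, 10.08 and 9.95 in Dorsal, and its difference of -1.56 ± 0.31 passed the 12-array fit (adjusted p 0.00701) and not the 6-array fit (0.0573). A further probe set of Zic1 had means of 6.29 and 9.98, a difference of -3.70 ± 0.29 (adjusted p 3.61e-05 in the fit of all probe sets). Zic4 and Lbx1 fell by 0.61 ± 0.14 and 0.48 ± 0.13 in the 12-array fit alone, with adjusted p of 0.0877 and 0.0729 over 6 arrays.

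Among the TALE homeobox proteins, which bind DNA together with Hox proteins, and the COUP-TF nuclear receptors, 6 of 12 rose and 1 fell, against 11.2% and 7.45% of all genes, with a median of 0.64. Nr2f1, a COUP-TF receptor of neural crest and eye development, measured 7.85, 7.66 and 7.86 in Cranial and 3.43, 4.80 and 3.63 in Dorsal. Only Dorsal 2 lay clearly over background, and Nr2f1 rose by 3.84 ± 0.28, 14.3-fold (adjusted p 2.31e-05 over 12 and 0.00548 over 6 arrays). Its relative Nr2f2 was expressed in both groups (8.77 and 7.66) and rose by 1.11 ± 0.18 in both fits. Meis1, a TALE cofactor, rose by 1.49 ± 0.21 with the probe set used, while another probe set of the gene fell by 0.64 ± 0.16 (7.06 in Cranial, 7.70 in Dorsal), so its direction is not settled. Nr2f6 has the same limit, with -1.08 in the probe set used and 0.66 in the other.

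**Figure D3:**
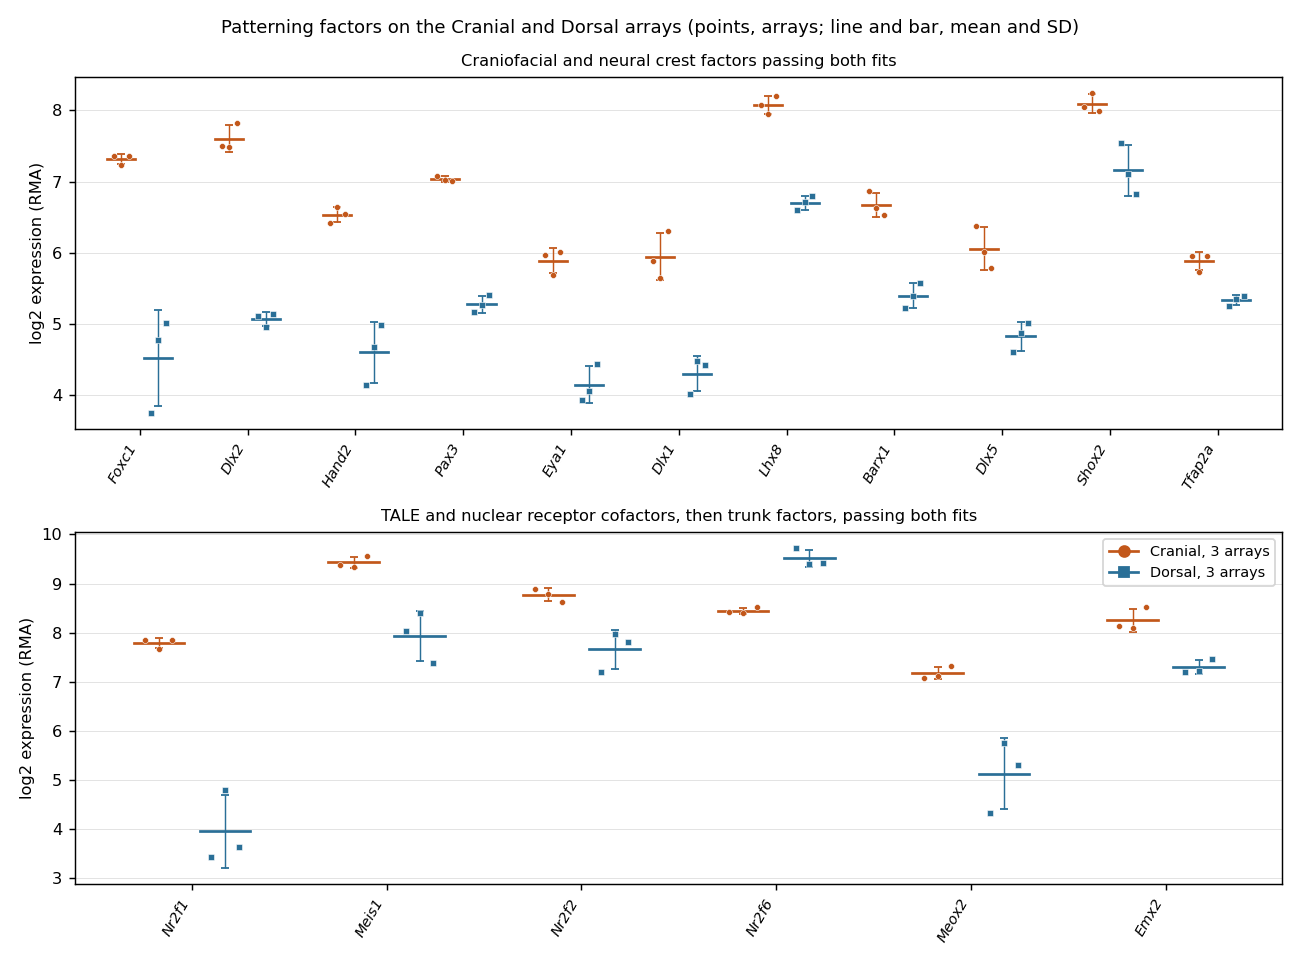
Log2 expression (RMA) of patterning factors called in both fits, on the 3 Cranial arrays (circles) and 3 Dorsal arrays (squares), with means and bars of 1 SD. The upper panel holds the craniofacial and neural crest factors, from Foxc1 to Tfap2a, and the lower panel the TALE and nuclear receptor cofactors followed by Meox2 and Emx2. Nr2f6 is the only one drawn that is higher in Dorsal.

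Sbspon, Mgp and Ptgs2 had large rises in Cranial. Sbspon, a secreted protein with a somatomedin B and a thrombospondin domain, measured 9.61, 9.39 and 9.57 in Cranial and 4.79, 3.53 and 4.05 in Dorsal. It rose by 5.40 ± 0.43, 42.2-fold, and a further probe set rose by 3.96 ± 0.16. Mgp, the matrix Gla protein that inhibits calcification, measured 10.83, 10.91 and 10.80 against 5.54, 5.76 and 5.84. Both groups were tight, and Mgp rose by 5.13 ± 0.43, 35-fold (adjusted p 5.27e-05 over 12 and 0.000109 over 6 arrays). Ptgs2, the inducible cyclooxygenase of prostaglandin synthesis, measured 11.54, 11.45 and 11.63 against 7.67, 6.35 and 6.34, a rise of 4.75 ± 0.81 in both fits.

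Mecom, a zinc finger transcription factor, was low on all Dorsal arrays (4.83, 4.86 and 4.78) and high on all Cranial arrays (9.03, 8.89 and 9.07). Its rise of 4.18 ± 0.26, 18.1-fold, passed both fits. Camk4, a calcium- and calmodulin-dependent kinase, measured 7.67, 7.59 and 7.69 against 4.07, 4.02 and 4.49, a rise of 3.46 ± 0.14. Ahr, the aryl hydrocarbon receptor, rose by 3.19 ± 0.36, Angptl1, a secreted angiopoietin-like protein, by 3.39 ± 0.32, Capn6, a calpain family member without protease activity, by 3.19 ± 0.57, and Tmem26 by 3.15 ± 0.22, all in both fits. Angptl1 was near background in Dorsal (4.03). Xaf1, an interferon-induced gene, shows how far Dorsal arrays can spread: it measured 7.97, 4.24 and 9.73 there against 10.55, 10.50 and 10.67 in Cranial, and its rise of 3.26 ± 1.02 passed the 12-array fit (adjusted p 0.0472) and not the 6-array fit (0.183).

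The largest fall of all was that of Ifi202b, a member of the interferon-inducible p200 family whose expression is known to differ between inbred mouse strains. It measured 3.47, 3.49 and 3.44 in Cranial, near background, and 10.18, 8.93 and 10.17 in Dorsal. The difference of -6.29 ± 0.28 is 78.4-fold on these values (adjusted p 6.91e-07 over 12 and 0.0014 over 6 arrays), and the labels used here do not name the strain of the lines. Eif2s3y, a gene of the Y chromosome, measured 3.30, 3.33 and 3.36 in Cranial and 7.81, 6.88 and 6.92 in Dorsal. Xist, the RNA that coats the silenced X chromosome in females, was high in both groups, at 11.14 to 11.33 in Cranial and 10.88 to 11.33 in Dorsal (adjusted p 0.916). Other Y-linked readings were low in both groups. Kdm5d measured 3.84, 3.79 and 3.78 in Cranial and 3.92, 4.29 and 4.23 in Dorsal, and Uty 3.45, 3.51 and 3.36 against 3.57, 3.70 and 3.76. Both were slightly higher on every Dorsal array than on any Cranial array, and neither was called. A further probe set of Eif2s3y had means of 3.12 and 3.31 (-0.19 ± 0.09, adjusted p 0.156 in the fit of all probe sets). The groups thus differ in the probe set used for Eif2s3y, and by less and without a call in Kdm5d and Uty, as well as in site and line. The part of this in the other differences was not tested. Leaving out Xist and the Y-linked genes gave 3392 called genes.

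Apoe, the apolipoprotein E gene, measured 9.46, 9.40 and 12.23 in Dorsal and 6.70, 6.59 and 6.73 in Cranial, a fall of 3.69 ± 0.87 (adjusted p 0.0155 over 12 and 0.042 over 6 arrays). Without Cranial 1 or Cranial 3 the 12-array call of Apoe was lost. Aoc3, a membrane amine oxidase of adipocytes and smooth muscle, fell by 2.86 ± 0.30, and Fabp4, the fatty acid binding protein of adipocytes, fell by 2.62 ± 0.39, both in both fits. Of the 5 adipocyte markers measured, Fabp4 alone was called (20%, near the 18.7% of all genes), and Lep and Cidec were near background in both groups. The mean of the 5, which includes Fabp4, was 5.06, 5.08 and 5.15 in Cranial and 7.07, 5.73 and 6.54 in Dorsal. Adipoq, named here after its values were seen, measured 8.05, 4.07 and 7.49 in Dorsal and at most 3.76 in Cranial (adjusted p 0.0616). The part of adipocyte lineage cells in the Dorsal values was not tested, and in sorted populations fewer cells of a type cannot be told apart from less RNA per cell.

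Ddit4, a stress-induced inhibitor of mTORC1, measured 8.27, 8.06 and 8.28 in Cranial and 10.64, 10.28 and 10.67 in Dorsal and fell by 2.32 ± 0.21, 5.01-fold, in both fits. Malat1, a long nuclear RNA, fell by 2.50 ± 0.16 from 13.61 to 11.10, and 3 of its 6 further probe sets were called lower as well. Rsrc2, a serine- and arginine-rich protein, fell by 3.02 ± 0.17, whereas another of its probe sets differed by 0.11 ± 0.26. Tmod3, tropomodulin 3, fell by 2.47 ± 0.19 with the probe set used and was not called on the mean of its probe sets (-0.26, adjusted p 0.421). Which transcript forms these probe sets read was not tested.

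Wnt signalling genes, which act in dermal fate and hair follicle growth, changed on several levels in both directions. R-spondins strengthen Wnt signals at the receptor, and Rspo2 measured 7.89, 7.82 and 8.02 in Cranial and 4.42, 4.57 and 6.53 in Dorsal. It rose by 2.74 ± 0.45, 6.67-fold (adjusted p 0.00252 over 12 and 0.0408 over 6 arrays). Of 19 ligands and R-spondins 2 rose and 3 fell (26.3% called, against 18.7% of all genes), and Rspo2 was the only one to pass both fits. Wnt16 rose by 0.76 ± 0.23, and Wnt11, Wnt2 and Wnt2b fell by 0.62 ± 0.17, 0.48 ± 0.15 and 0.44 ± 0.13, none of them in the 6-array fit, in which adjusted p ran from 0.0634 to 0.164.

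Of 32 receptors and secreted antagonists 6 rose and 3 fell in the 12-array fit (28.1% called, against 18.7% of all genes), and 3 rose in both fits. Ror1, a receptor tyrosine kinase for Wnt5a, measured 7.04, 7.09 and 7.33 in Cranial and 5.02, 4.70 and 5.21 in Dorsal, a rise of 2.18 ± 0.18, 4.52-fold. Sfrp1, a secreted Wnt antagonist, rose by 2.64 ± 0.69, and its Dorsal arrays were spread over 6.77, 7.20 and 8.97. Znrf3, a ligase that removes Frizzled receptors, rose by 1.44 ± 0.21 in both fits, and the receptor Fzd7 by 1.59 ± 0.34 in the 12-array fit (0.0874 over 6 arrays). The antagonists Dkk2 and Apcdd1 went the other way. Dkk2 measured 5.72, 5.27 and 5.50 in Cranial and 8.87, 6.65 and 9.27 in Dorsal and fell by 2.76 ± 0.51, while Apcdd1 fell by 2.06 ± 0.37, with adjusted p of 0.0639 and 0.0554 over 6 arrays. Among 12 Wnt targets Axin2, a feedback inhibitor of the pathway, rose by 1.13 ± 0.12 (6.84, 6.89 and 6.78 against 5.78, 5.67 and 5.68) and Myc by 2.78 ± 0.28, both in both fits, and the other 10 were not called. The 16.7% called in this list is near the 18.7% of all genes.

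In the BMP and TGF-beta families 4 of 26 ligands and receptors rose and 1 fell, and 7 of 20 antagonists and targets rose with none falling, 2 of them in both fits, against 11.2% of all genes higher and 7.45% lower. Their medians were 0.26 and 0.36. Bmp5, a BMP ligand of skull and ear cartilage, was the leading member: it measured 7.90, 7.90 and 8.59 in Cranial and 4.68, 4.79 and 4.61 in Dorsal. It rose by 3.44 ± 0.21, 10.8-fold (adjusted p 6.24e-06 over 12 and 0.0021 over 6 arrays). The BMP receptor Acvr1 rose by 0.89 ± 0.18 in both fits, and Gdf10 by 2.32 ± 0.72 and Acvr2a by 1.08 ± 0.22 in the 12-array fit alone (0.0864 and 0.0698 over 6 arrays).

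The Id genes are induced by BMP signals and inhibit helix-loop-helix factors. Id1, Id2 and Id4 were called higher in Cranial in the 12-array fit. Id4 measured 12.06, 12.07 and 12.47 against 10.91, 9.98 and 10.91 and rose by 1.60 ± 0.23 in both fits with the probe set used. Its 2 further probe sets were not called in the fit of all probe sets, at -0.36 ± 0.23 (adjusted p 0.305) and 0.36 ± 0.26 (adjusted p 0.37). Id1 measured 10.41, 10.36 and 10.64 against 7.10, 6.26 and 9.31, and Id2 10.37, 10.33 and 10.55 against 7.73, 6.98 and 10.22. Dorsal 3 lay close to the Cranial level for both, and their rises of 2.91 ± 0.65 and 2.11 ± 0.65 were not kept in the 6-array fit (adjusted p 0.0712 and 0.163). Smad7, the inhibitory Smad, rose by 1.09 ± 0.26 in the 12-array fit (0.067 over 6 arrays).

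Growth factor genes of the insulin-like, fibroblast and platelet-derived families included some of the strongest differences, with 9 of 33 higher, 2 lower and a median of 0.49. Calls made up 33.3% of the list, against 18.7% of all genes. Igf2, a fetal growth factor from an imprinted locus, measured 12.20, 12.17 and 12.35 in Cranial and 7.81, 9.13 and 8.14 in Dorsal. It rose by 3.88 ± 0.70, 14.7-fold (adjusted p 0.00415 over 12 and 0.00487 over 6 arrays). Among the IGF binding proteins of the list, Igfbp2, Igfbp4 and Igfbp5 rose, while Igfbp3, Igfbp6 and Igfbp7 were not called (adjusted p 0.891, 0.0919 and 0.0766). Igfbp2 measured 11.06, 11.23 and 11.51 against 7.16, 6.40 and 9.54, a rise of 3.56 ± 0.68. Igfbp4 measured 12.41, 12.54 and 12.79 against 8.94, 9.45 and 10.42, a rise of 2.98 ± 0.35, and Igfbp5 rose by 1.76 ± 0.27, all in both fits. The call of Igfbp2 was close to the threshold over 6 arrays (0.0488), and Igfbp5 was not called with its other probe set (0.54, adjusted p 0.559). Fgf10, a mesenchymal ligand of epithelial growth, fell by 1.29 ± 0.22 in both fits (5.41, 5.46 and 5.50 against 6.40, 6.50 and 7.35).

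Retinoic acid and hedgehog genes that were called all rose, 4 of 23 and each in both fits. The share called, 17.4%, was near the 18.7% of all genes, and the list median of 0.098 turned to -0.112 after median centring. Crabp2, which carries retinoic acid to its nuclear receptors, measured 7.86, 7.65 and 7.96 in Cranial and 5.33, 5.45 and 5.97 in Dorsal and rose by 2.24 ± 0.21, 4.72-fold. The receptor Rarg measured 9.95, 9.87 and 9.99 against 7.78, 8.26 and 8.55 and rose by 1.74 ± 0.17. Smo, the signal transducer of the hedgehog pathway, rose by 1.02 ± 0.11, and the co-receptor Cdon by 0.84 ± 0.18. Each of these 4 genes kept the Cranial arrays above all Dorsal arrays, and absence of overlap also holds for 3364 of the 3393 called genes.

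**Figure D4:**
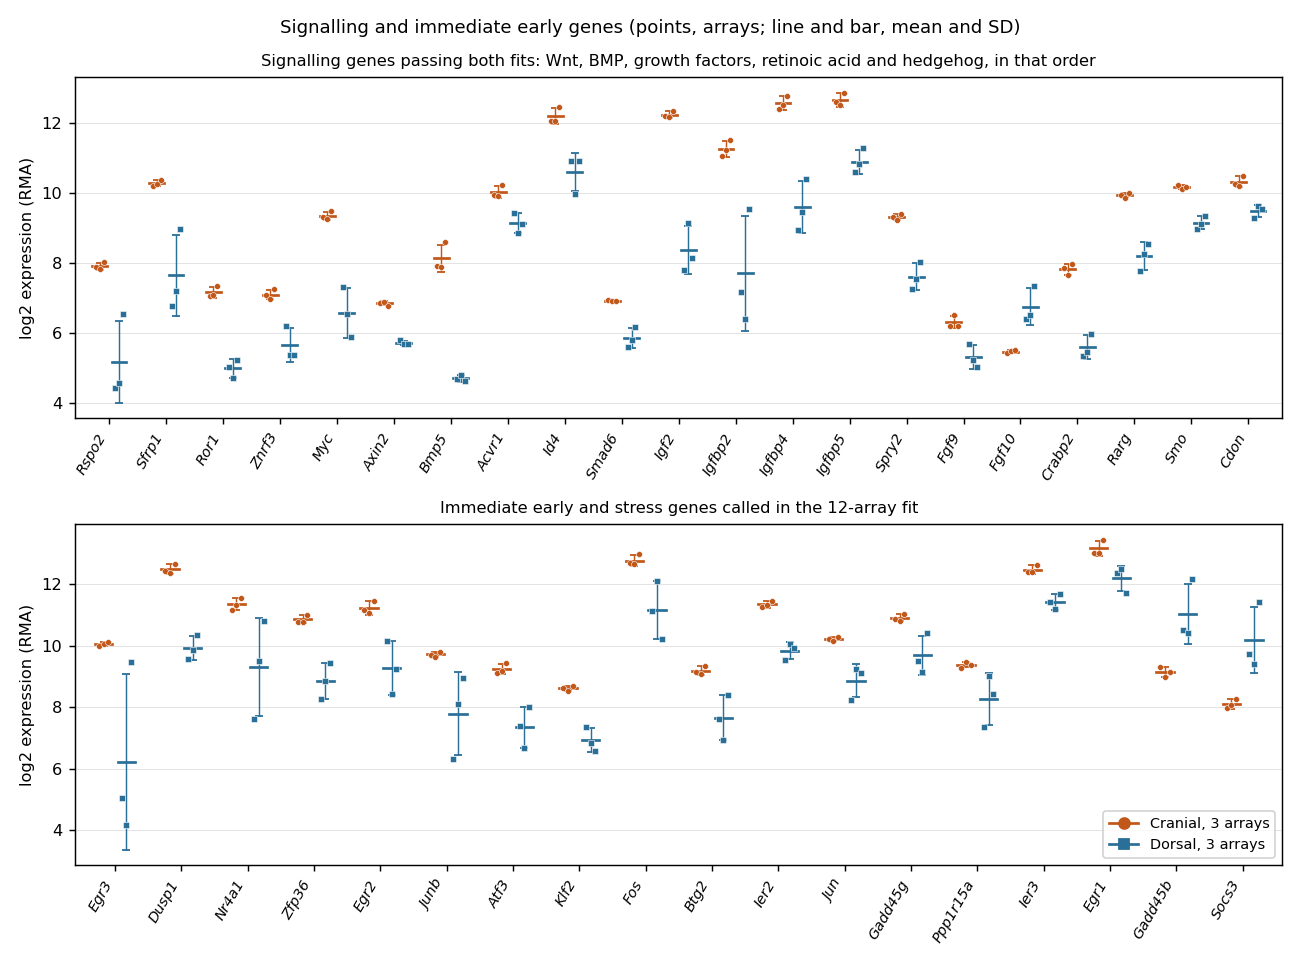
Log2 expression (RMA) on the 3 Cranial arrays (circles) and 3 Dorsal arrays (squares), with means and bars of 1 SD. The upper panel shows the signalling genes called in both fits and the lower panel the immediate early and stress genes called in the 12-array fit. Fgf10, Gadd45b and Socs3 are the genes drawn that are higher in Dorsal, and the long Dorsal bars of Egr3, Junb and Nr4a1 show values that differ by several units between the 3 arrays.

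Few collagens were called. Of 31 collagens 2 rose and 1 fell (9.68% called, against 18.7% of all genes), none of them in both fits, and the median was -0.091. Col1a1, the main fibrillar collagen chain, measured 13.08, 13.13 and 13.44 in Cranial and 13.13, 13.46 and 13.67 in Dorsal, and its difference of -0.20 ± 0.16 did not pass the test (adjusted p 0.407). Col4a5 and Col13a1 rose by 1.44 ± 0.39 and 0.39 ± 0.11 and Col2a1 fell by 1.13 ± 0.28 in the 12-array fit, with 6-array adjusted p of 0.122, 0.113 and 0.0724.

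Among 34 matrix glycoproteins and crosslinking enzymes 6 rose and 2 fell (23.5% called, against 18.7% of all genes). Tnn, the tenascin W gene, rose by 1.28 ± 0.13 (7.41, 7.33 and 7.48 against 6.09, 6.21 and 6.08), in both fits. Thbs2, an antiangiogenic thrombospondin, fell by 1.08 ± 0.19 and Loxl4 by 0.66 ± 0.13, in both fits as well. Lox, the collagen and elastin crosslinking oxidase, rose by 0.89 ± 0.15 with the probe set used (12.86 against 11.97), while another of its probe sets differed by -0.50 ± 0.19. Eln, the elastin gene, had Dorsal values of 5.91, 6.71 and 7.81 against 8.31, 8.34 and 8.44, and its rise of 1.55 ± 0.48 was not kept over 6 arrays (adjusted p 0.0979).

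Of 17 small proteoglycans and hyaluronan genes 1 rose and 3 fell (23.5% called). Epyc, epiphycan of cartilage, measured 5.87, 5.67 and 6.11 against 3.44, 3.90 and 4.04, near background in Dorsal, and rose by 2.09 ± 0.19. Cd44, the hyaluronan receptor, measured 9.71, 9.70 and 9.91 against 11.34, 11.25 and 11.88 and fell by 1.72 ± 0.30, both in both fits. None of the 3 further probe sets of Cd44 was called, the brightest at -0.95 ± 0.44 (limma adjusted p 0.16 in the fit of all probe sets). The hyaluronan synthase Has1 fell by 1.45 ± 0.29 and its partner proteoglycan Vcan by 0.78 ± 0.20 in the 12-array fit (0.0618 and 0.113 over 6 arrays). Of 31 proteases and inhibitors 2 rose and 3 fell, among them Adamts4, an aggrecanase, by 1.99 ± 0.40 (0.0551 over 6 arrays), and Mmp23 by 1.08 ± 0.27 in both fits. The 16.1% called in this list is near the 18.7% of all genes.

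Chemokines, cytokines and complement genes were called in 3 of 31 cases (9.68%, against 18.7% of all genes). Cxcl2, a neutrophil chemokine, measured 5.43, 5.17 and 5.21 in Cranial and 7.58, 7.58 and 9.04 in Dorsal and fell by 2.79 ± 0.43 in both fits. Csf1, the macrophage growth factor, fell by 1.22 ± 0.24 and Ccl7 rose by 1.17 ± 0.21, with adjusted p of 0.0666 and 0.0567 over 6 arrays. Of 27 interferon-stimulated and antigen processing genes 2 rose and 2 fell (14.8% called, against 18.7% of all genes). Their mean on the Dorsal arrays was 7.78, 7.10 and 9.03, against 8.25 to 8.38 in Cranial, so that Dorsal 2 lay below and Dorsal 3 above the Cranial arrays. Bst2, an antiviral membrane protein, rose by 1.77 ± 0.42 in both fits, and Oasl2 by 2.69 ± 0.64 in the 12-array fit (0.0723 over 6 arrays).

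Immediate early and stress genes, which respond quickly to growth factors and stress, were largely higher in Cranial. Of 34 measured, 16 rose and 2 fell, 8 rose in both fits and the median was 0.57. Over all genes 11.2% rose, and 4.67% rose in both fits. The mean of the list was 10.01, 10.01 and 10.18 in Cranial and 9.11, 9.14 and 9.93 in Dorsal. Dusp1, a phosphatase that ends MAP kinase signals, measured 12.41, 12.36 and 12.66 against 9.56, 9.85 and 10.35. It rose by 2.56 ± 0.22, 5.91-fold (adjusted p 6.79e-05 over 12 and 0.00487 over 6 arrays). Zfp36, tristetraprolin, which destabilises cytokine transcripts, measured 10.77, 10.78 and 11 against 8.25, 8.85 and 9.42 and rose by 2.01 ± 0.24 in both fits.

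Egr3 rose by 3.83 ± 1.01 in the 12-array fit, but Dorsal 3 (9.47) lay close to the Cranial arrays (mean 10.05, highest 10.12) while Dorsal 1 and Dorsal 2 lay at 5.04 and 4.16, and the 6-array fit did not call it (adjusted p 0.139). Leaving out Cranial 1, Cranial 2, Cranial 3 or Dorsal 2 also ended the call. Nr4a1, an orphan nuclear receptor, had Dorsal values of 7.62, 9.51 and 10.78 and a rise of 2.04 ± 0.60 that behaved alike (0.157 over 6 arrays). Socs3 and Gadd45b, inhibitors of cytokine and stress signals, fell by 2.07 ± 0.40 and 1.90 ± 0.41 (0.0677 and 0.0672 over 6 arrays). The heat shock genes of the list, such as Hspa1a and Hsp90aa1, were not called, with differences of -0.20 each.

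Promoters of this list were searched because 16 of its members rose, in windows of 250 bases before to 50 after the start of each gene (RefSeq, build GRCm38.p6, 28 of the 34 genes with a window). The CArG box, the site of serum response factor, searched on both strands, was present in 2 of 28 genes, Egr2 and Zfp36, and in 1.81% of all 27025 genes with a window, counting a match in any window of a gene. The cAMP response element TGACGTCA, a palindrome that reads the same on both strands, was present in 3 of 28 genes, Dusp1, Btg2 and Ppp1r15a, and in 2.03% of all genes with a window. All 5 genes were among the 13 genes with a window that rose, and no match lay in the 13 that were not called or the 2 that fell. The 250 bases before the start are printed for a gene of each kind that passed both fits, Zfp36 with its CArG box 58 bases before the start and Dusp1 with its cAMP response element 143 bases before the start, each in capitals. The Zfp36 stretch is chr7:28379229-28379478 and the Dusp1 stretch chr17:26508473-26508722, both on the minus strand. A match of letters is a description and does not show that a factor binds there.
Zfp36: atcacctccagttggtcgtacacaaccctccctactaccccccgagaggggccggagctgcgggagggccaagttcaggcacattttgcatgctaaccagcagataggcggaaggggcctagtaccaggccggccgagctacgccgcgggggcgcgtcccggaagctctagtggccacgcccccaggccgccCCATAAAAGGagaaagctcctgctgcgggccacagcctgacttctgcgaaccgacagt
Dusp1: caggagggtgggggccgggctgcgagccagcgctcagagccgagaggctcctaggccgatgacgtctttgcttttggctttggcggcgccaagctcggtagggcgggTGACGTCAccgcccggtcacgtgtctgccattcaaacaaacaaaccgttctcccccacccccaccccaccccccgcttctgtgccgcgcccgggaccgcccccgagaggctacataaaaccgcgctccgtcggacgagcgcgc

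Genes of axon and tissue guidance, whose ephrin and semaphorin systems sort cells at boundaries, were called in 11 of 37 cases (29.7%, against 18.7% of all genes), 5 higher and 6 lower. Epha3 measured 9.44, 9.33 and 9.35 in Cranial and 7.36, 7.68 and 6.58 in Dorsal and rose by 2.17 ± 0.24, 4.50-fold, in both fits. Ephb4, a receptor of vascular and mesenchymal boundaries, rose by 1.26 ± 0.17 in both fits. Epha4 measured 6.38, 6.36 and 6.39 against 8.07, 8.09 and 8.07 and fell by 1.70 ± 0.15, with a further probe set at -2.15 and another at 1.38. Plxna2 fell by 1.33 ± 0.19 and Plxnc1 rose by 0.78 ± 0.20, and each had a probe set called the other way (0.89 and -0.38).

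Cell cycle genes varied more among the Dorsal arrays than between the groups. The mean of the 31 measured was 8.90, 8.84 and 9.0 in Cranial and 9.47, 8.88 and 7.18 in Dorsal, so Dorsal 3 lay well under all others. Aurka, a mitotic kinase, was the only member called (1.38 ± 0.42, adjusted p 0.0434 over 12 and 0.144 over 6 arrays), and the list median was 0.49. That is 3.23% of the cell cycle list, against 18.7% of all genes. Of 22 cholesterol and lipid synthesis genes 2 rose and 2 fell (18.2% called, near the share of all genes). Fdps, farnesyl diphosphate synthase, was the only one of them in both fits (1.18 ± 0.22).

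Of 16 genes reported for papillary dermis 2 rose and 2 fell, and of 16 reticular and hypodermal genes 3 rose and 1 fell, 25% called in each list against 18.7% of all genes. The median difference was -0.10 for the papillary and 0.39 for the reticular list. The mean of the reticular list was 7.70, 7.70 and 7.79 in Cranial and 6.94, 7.12 and 7.54 in Dorsal, without overlap. That separation rests on Mgp (10.83, 10.91 and 10.80 in Cranial, 5.54, 5.76 and 5.84 in Dorsal). Without Mgp the array means of the groups would overlap. The papillary list had means of 7.37, 7.31 and 7.42 in Cranial and 7.86, 7.21 and 7.48 in Dorsal, with overlap. Mgp, described above, is a member of the reticular list and had its largest rise, and Fabp4 had its largest fall. Runx1, a papillary gene in that list, fell by 0.92 ± 0.19, and Dlk1, a reticular and preadipocyte gene, rose by 1.44 ± 0.27, both in both fits. Mest, a marker of enlarging adipocytes, had Dorsal values of 5.77, 7.32 and 8.82 against a Cranial mean of 10.05, and its rise of 2.75 ± 0.82 was not kept over 6 arrays (adjusted p 0.0765). Dpp4, the gene of CD26, was low in both groups (4.59 and 4.80) and did not pass the test (adjusted p 0.461).

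Fibroblast markers were high in both groups, and limma called 0 of 9 at an adjusted p under 0.05, in the 12-array and in the 6-array fit, with 3 at an unadjusted p under 0.05. Pdgfra measured 12.36, 12.24 and 12.56 in Cranial and 11.85, 11.47 and 12.27 in Dorsal (0.53 ± 0.31, adjusted p 0.258), Thy1 had means of 12.76 and 12.03, and Vim of 13.07 and 13.12. The drivers of the reporter lines were low in these adult cells, En1 at 4.06 and 3.97 and Wnt1 at 5.02 and 5.40, and neither passed the test (adjusted p 0.688 and 0.0637). The gated markers Pecam1 (3.77 and 3.92), Ptprc (3.90 and 3.98) and Tek (4.27 and 3.97) were near background in both groups. Epcam was read at 8.46 and 8.43 although EpCAM-positive cells were gated out, with Cdh1 (3.09 and 3.22) near background, and its direction changed between settings. Another probe set of Epcam read 4.42 and 5.15 (-0.74 ± 0.30, adjusted p 0.116). Of 8 keratinocyte markers Perp rose by 2.41 ± 0.16, in both fits, and Krt14 fell by 0.46 ± 0.13 in the 12-array fit alone (4.77 and 5.22, adjusted p 0.134 over 6 arrays). Of 7 endothelial markers Kdr alone was called, lower by 0.73 ± 0.11 with 6.55 in Cranial, and of 8 leukocyte and 8 mural markers limma called 0, with 1 in each list at an unadjusted p under 0.05. Of 6 skeletal muscle markers Myod1 was called lower (-0.37) and of 6 melanocyte markers Dct (-0.52), both in the 12-array fit alone (limma adjusted p 0.106 and 0.0776 over 6 arrays). For Schwann cell, dermal papilla and erythroid markers limma called 0 of 4, 0 of 6 and 0 of 2, with 1, 1 and 0 at an unadjusted p under 0.05. Of 6 bone, cartilage and tooth markers Acan, the aggrecan gene, rose by 1.88 ± 0.17 in both fits (7.21, 7.09 and 7.10 against 5.44, 5.21 and 5.09), and Col2a1 fell by 1.13 in the 12-array fit alone. Of 4 tendon markers Mkx and Scx rose by 1.30 ± 0.37 and 0.67 ± 0.13 in the 12-array fit alone, and their part in the other differences was not tested. Beside these marker counts, the 12-array fit called 18.7% of all genes.

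Oral and Ventral cells, which share no array with the Cranial and Dorsal groups but share the spread of the 12-array fit, showed how much of the difference also appears between another pair of sites of the same lines. Oral minus Ventral gave 2665 calls (14.6%), 1881 higher (10.3%) and 784 lower (4.31%). The same direction was called in both pairs for 1685 genes, 1267 higher (6.96% of all genes) and 418 lower (2.3%), which is 49.7% of the Cranial minus Dorsal calls and 63.2% of the Oral minus Ventral calls. Opposite directions were called for 7 genes (0.0385%). The genes with the largest differences in both pairs included Hoxc8 (-6.16 and -7.20), Ifi202b (-6.29 and -5.53), Hoxa9 (-4.94 and -5.36), Ptgs2 (4.75 and 4.69), Sbspon (5.40 and 4.53), Igf2 (3.88 and 4.13) and Nr2f1 (3.84 and 5.21). Eif2s3y was lower in both pairs too (-3.87 and -2.45), as were Malat1 (-2.50 and -2.56), Rsrc2 (-3.02 and -2.67) and Tmod3 (-2.47 and -2.50).

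The difference between the pairs, (Cranial minus Dorsal) minus (Oral minus Ventral), was called for 89 genes (0.489%), 44 higher and 45 lower. Camk4 rose by 3.46 in Cranial against Dorsal and by 0.55 in Oral against Ventral, a difference of 2.91 with a limma adjusted p of 0.000128. Chil1, a secreted chitinase-like protein, measured 7.62, 7.75 and 7.82 in Cranial and 4.67, 4.72 and 4.98 in Dorsal and differed by 0.02 in Oral against Ventral. Hoxd8, chosen with its values known, was not called in Cranial minus Dorsal (0.43) but was lower in Oral than in Ventral (-2.54), a difference of 2.97 with an adjusted p of 0.0263. Bmp5 (3.44 and 0.73) likewise rose more in the Cranial and Dorsal pair. Hand2 (1.94 and -1.07) and Meis1 (1.49 and -1.12, for the probe set used) were called in opposite directions. Both were higher in Cranial than in Dorsal and lower in Oral than in Ventral (limma adjusted p 0.0238 and 0.00506 for Oral minus Ventral). Lhx8 was on the other side, with a rise of 1.38 against one of 5.08 in Oral, a difference of -3.70 (adjusted p 0.000187). Meox2 (2.05 and 4.60), Alx1 (0.68 and 3.08), Eya1 (1.75 and 4.07) and Pax3 (1.76 and 3.55) rose in both pairs and more in the oral pair, and Iqgap2, a scaffold protein, was lower in Cranial (-0.61) and higher in Oral (2.00).

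**Figure D5:**
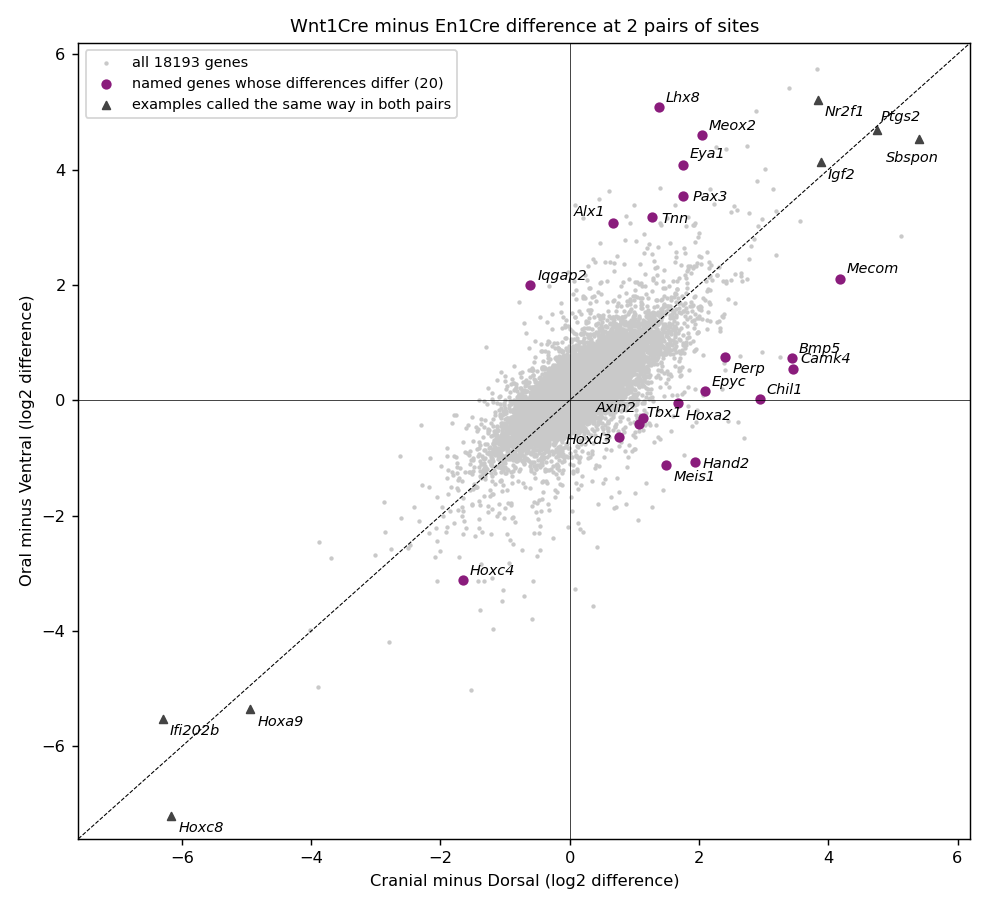
Cranial minus Dorsal (horizontal axis) against Oral minus Ventral (vertical axis), both as log2 differences, for all 18193 genes (grey points), with the line of equal differences dashed. Purple points are the named genes for which the test of the difference between the pairs was called, and triangles are examples called the same way in both. Lhx8 lies far above the dashed line at 1.38 and 5.08, and Camk4, Bmp5 and Chil1 far below it, with 3.46, 3.44 and 2.94 on the horizontal axis.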

How the data were processed

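Gene expression was measured in mouse dermal cells sorted by a lineage reporter, on Affymetrix Mouse Genome arrays. Per the labels, RMA and quantile normalization in R gave the values the authors deposited, which are log2 expression. Its version was not given in the sources used here. Of 45101 probe sets, 64 controls were set aside, 34945 carried 1 gene symbol, 932 several and 9160 none, and 34741 matched a GRCm38.p6 gene by Entrez identifier. Each of 18193 genes was read from 1 probe set, that with the highest average on the 18 arrays. limma 3.58.1 (lmFit, eBayes) in R 4.3.3 was fitted to the 12 arrays of Cranial, Dorsal, Oral and Ventral, p-values were adjusted by Benjamini-Hochberg across all genes, and the fit was tested on simulated data. Alternatives are given in the closing section. Errors of differences are SE from the 12-array fit. Tables and plots were made in Python 3.11.15 (pandas 2.3.3, numpy 2.4.6, matplotlib 3.10.9).

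Named genes were the 15 that rose most and the 15 that fell most among calls without overlap of arrays, at most 4 called genes of a list in each direction (2 where none was called), gate and line genes, 5 per direction for the difference between pairs that are also called in Cranial minus Dorsal, and 10 per direction called alike in both pairs. Other genes were named after their values were seen. The comparison, the 27 gene lists and the 13 marker lists were chosen with earlier results of these data known. The number of arrays limits the precision.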

Additional observations from a re-analysis of the deposited data

Results flagged for a closer look

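For 20 of the named genes the difference between Cranial and Dorsal differed from that between Oral and Ventral, tested in limma as the difference of the 2 differences with adjustment over all genes, 7 with a negative and 13 with a positive value.

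The negative values belong to genes with the larger rise in the oral pair. They were -3.7 for Lhx8, -2.6 for Iqgap2, -2.55 for Meox2, -2.4 for Alx1, -2.33 for Eya1, -1.9 for Tnn and -1.79 for Pax3. Of these, Iqgap2 was the one with opposite signs in the pairs (-0.61 and 2.00). Tnn, the tenascin W gene of bone and periosteum, rose by 1.28 in Cranial and by 3.18 in Oral.

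The positive values were 3.01 for Hand2, 2.92 for Chil1, 2.91 for Camk4, 2.7 for Bmp5, 2.61 for Meis1, 2.06 for Mecom, 1.93 for Epyc, 1.73 for Hoxa2, 1.65 for Perp, 1.49 for Tbx1, 1.46 for Hoxc4, 1.43 for Axin2 and 1.41 for Hoxd3. Hoxc4 was lower in both Wnt1Cre groups, by 1.66 in the Cranial pair (a difference of -1.66) and by more in the oral pair (-3.12). Hand2, Meis1 and Hoxd3 were called higher in the Cranial pair and lower in the oral pair (0.77 and -0.64 for Hoxd3). Axin2 and Hoxa2 had differences of 1.13 and 1.68 in the Cranial pair and of -0.30 and -0.052 in the oral pair. The value of Meis1 holds for the probe set used, and another of its probe sets fell in Cranial.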

How the results depend on the processing

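The number of calls moved with the fit, the scaling and the arrays left out. Against 3393 calls (2037 higher, 1356 lower) by 12 arrays, the 6 Cranial and Dorsal arrays gave 1242 (870 and 372), 1 weight per group 1773 (1306 and 467), and 1 weight per array 10113 (4896 and 5217), with weights of 0.0862, 3.85 and 0.235 for Dorsal 1, 2 and 3. Median centring gave 6738 (lower 5317), leaving out dim genes 815 lower, a 2-fold minimum 1056 (800 and 256), and limma treat against 1.5-fold 296 (231 and 65). Leaving out 1 array gave 1645 (without Cranial 1) to 6148 (without Dorsal 1) calls, 1130 to 3682 higher and 498 to 2466 lower. The 6-array fit, in alternatives added after seeing the data, gave 5222 (3276 higher) without Dorsal 1, 912 (618 and 294) without Dorsal 2 and 1507 (1035 and 472) without Dorsal 3. The difference between pairs gave 89 calls, 1565 with array weights and 43 (without Oral 2) to 192 (without Dorsal 1) with 1 array left out. Oral minus Ventral gave 2665, against 7724 with array weights, 5169 with group weights, 4189 with median centring and 1420 to 5085 with 1 array left out. All 18 arrays, a trend with robust eBayes, repeated quantile normalization, both other probe set rules and leaving out Xist and Y-linked genes gave 2860 to 4370 calls for Cranial minus Dorsal.

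Among 144 called named genes, 52 were called under every setting run for them and 141 kept 1 direction. With the probe set of largest variance Meis1 (-0.64), Lox (-0.50) and Hmgcs1 (0.13) reversed. Epcam, not called, turned to -0.31 with array weights, -0.35 on the mean of its probe sets and between -0.45 (without Dorsal 1) and 0.297 (without Dorsal 3) with 1 array left out. Calls of 44, 36 and 40 named genes were lost without Cranial 1, 2 and 3 and of 5, 18 and 14 without Dorsal 1, 2 and 3. Further probe sets exist for 84 of the 144, and 30 have one called the same way and 5 one called the opposite way (Meis1, Nr2f6, Epha4, Plxna2 and Plxnc1). After median centring the medians of the HoxD, craniofacial, Wnt target, retinoic acid, glycoprotein, small proteoglycan, guidance and cholesterol lists turned negative.

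The shared replicate numbers were not treated as pairs in the main fit, and the groups are of different genotype. Same-numbered Cranial and Dorsal arrays had deviations correlated at -0.124, 0.302 and -0.273, and differently numbered arrays ran from -0.434 to 0.438. Deviations from a mean of 3 arrays constrain each other, so these values cannot settle whether arrays of the same number were handled together. With the number as a replicate block 2931 genes were called (1808 higher, 1123 lower), with 68 for the difference between pairs and 2355 for Oral minus Ventral. Signals near background limit the differences that could be measured from low genes.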

Other observations

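Imprinted genes, which are expressed from 1 parental copy and of which several act on fetal growth, were listed after Igf2, Dlk1 and Mest had been seen to rise. Of 25 measured, 7 rose in Cranial, 1 fell and 17 were not called, and 4 rose and 1 fell in both fits. Without those 3 genes, 4 of 22 rose. Over all genes 11.2% rose and 7.45% fell, and 4.67% rose and 2% fell in both fits. The median of the list was 0.101. Grb10, an adaptor that restrains insulin and IGF signals, rose by 0.96 ± 0.12 from a Dorsal mean of 11.29 to 12.25 in both fits, and Impact, a regulator of translation, by 0.73 ± 0.20. Plagl1, a zinc finger factor, and Rian, a noncoding RNA of the Dlk1 locus, rose by 2.42 ± 0.49 and 1.16 ± 0.29 in the 12-array fit (limma adjusted p 0.0695 and 0.0812 over 6 arrays). Ndn, necdin, fell by 0.72 ± 0.14 in both fits. Cdkn1c, an inhibitor of the cell cycle, had means of 11.18 and 9.02 and an adjusted p of 0.0677 over 12 and 0.0275 over 6 arrays. Peg3 was nearly level (11.26 and 11.34, adjusted p 0.881).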
